A study of Mus musculus with 12 samples.

Results

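Cdh1, Epcam, Krt8 and Krt18, 4 genes that mark epithelial cells, were followed through 4 groups of sorted kidney cells from newborn mice (postnatal day 0). The genes were located by fixed mm9 windows on chromosomes 8, 17 and 15, and 4 of the 26699 loci of the deposited table were taken, 1 for each gene. The sample titles give 2 mutant high, 2 control high, 4 mutant low and 4 control low samples. All 12 carry the R26R-tdTomato reporter and came from Six2-expressing cells sorted by flow cytometry. The series title names Eed, a Polycomb group member, but no sample label gives the mutant allele, the Cre driver or the strain, and none says which signal was high or low. The sample descriptions also carry numbers. In mutants the numbers 5 and 7, and in controls 6 and 8, were each borne by a high and a low library. Whether a shared number marks the same animal is not stated, and the reported fit does not pair these libraries. Whether the samples came from separate animals is not stated either. The p-values below therefore reflect variation among these libraries, some or all of which may be technical.

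An epithelium is a sheet of cells joined side by side. Cdh1 encodes E-cadherin, the calcium-dependent adhesion protein of adherens junctions. Epcam encodes an adhesion and signalling protein of the epithelial cell membrane. Krt8 and Krt18 encode the type II and type I keratins that assemble with each other into the intermediate filaments of simple epithelia. In the developing kidney, Six2-expressing nephron progenitors are mesenchymal, and their descendants turn into the epithelium of the nephron, where E-cadherin is best known from the distal tubule, and from the collecting duct that arises from the ureteric bud.

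No strand of a window held more than 1 locus. Cdh1 was uc009ngi.1 on the plus strand of chromosome 8, from 109127267 to 109194146. Epcam was uc008duy.1 on the plus strand of chromosome 17, from 88035318 to 88050467. Krt8 was uc007xui.1 on the minus strand of chromosome 15, from 101827141 to 101834773, and Krt18 was uc007xuj.2 on the plus strand of the same chromosome, from 101858646 to 101862457. Positions are on mm9 as deposited. In all 4 cases the chromosome and the strand matched those of the gene of that name in GENCODE M21, an annotation of another build, and the spans differed by 2 to 153 bases. Each gene drew its fragments from 1 transcript, and every value was a whole number.

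The sequences upstream of Epcam, Krt8 and Krt18 are given as a description only. E-boxes upstream of epithelial genes are known binding sites of the Snail and Zeb repressors. Whether a repressor bound these sequences, or bears on the levels below, was not tested. They are the 250 bases before the start site on the GRCm38.p6 build, from RefSeq, which matched 3 of the 4 symbols. Capitals mark an E-box (CAGGTG or its reverse complement CACCTG) or a GC box (GGGCGG or its reverse complement CCGCCC).
Epcam, chr17:87635729-87635978, plus strand: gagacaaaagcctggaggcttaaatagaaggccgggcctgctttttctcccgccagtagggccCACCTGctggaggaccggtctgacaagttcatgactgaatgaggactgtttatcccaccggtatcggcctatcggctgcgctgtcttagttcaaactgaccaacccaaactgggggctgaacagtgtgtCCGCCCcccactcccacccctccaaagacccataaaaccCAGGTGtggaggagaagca
Krt8, chr15:102004343-102004592, minus strand: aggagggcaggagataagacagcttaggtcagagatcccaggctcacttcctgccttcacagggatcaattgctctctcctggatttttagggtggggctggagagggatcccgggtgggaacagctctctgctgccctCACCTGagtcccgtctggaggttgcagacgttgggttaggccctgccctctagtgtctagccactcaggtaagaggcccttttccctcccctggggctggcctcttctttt
Krt18, chr15:102027966-102028215, plus strand: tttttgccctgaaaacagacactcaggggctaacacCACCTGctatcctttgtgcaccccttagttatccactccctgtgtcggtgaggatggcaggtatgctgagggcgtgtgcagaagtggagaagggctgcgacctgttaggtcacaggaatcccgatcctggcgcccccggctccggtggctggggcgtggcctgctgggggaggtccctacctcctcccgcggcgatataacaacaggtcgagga

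All 3 sequences held an E-box, which 17.2% of the 32851 upstream sequences in the same RefSeq table also held. Epcam had E-boxes at -187 to -182 and at -19 to -14 from the start site, Krt8 at -111 to -106 and Krt18 at -214 to -209. A GC box, present in 32.7% of all upstream sequences, was found at -58 to -53 in Epcam. The letters TATAAA and their reverse complement TTTATA, present in 12.4% of all upstream sequences, were in none of the 3 windows of 250 bases. The searched motifs did not overlap each other.

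Library totals ran from 4549011 to 12365078 fragments, and the control high libraries held 4549011 and 6249263. Chromosome M took 4.51% and 10.3% of the control high libraries, compared with 0.494% to 1.96% of each of the 10 remaining libraries. The 100 most abundant loci took 29.1% and 34.4% of the control high libraries, compared with 18.8% to 22.1% of each remaining library. With chromosome M and those loci left out of the library sizes, the log2 fold changes of mutant over control high cells were -0.28 for Cdh1 and 0.0095 for Epcam.

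All 4 genes were far higher in high than in low cells, in mutant and in control kidneys. Cdh1, Krt8 and Krt18 were between 26.2-fold and 49.0-fold higher in high cells of mutants, and between 26.8-fold and 47.6-fold higher in high cells of controls. Epcam was 4.88-fold higher in mutant and 8.37-fold higher in control high cells. In each genotype 4 of 4 genes were called higher, where 19.0% of all loci tested were called higher in high cells of mutants and 25.3% in those of controls. Calls in either direction took 32.2% of all loci in mutants and 52.3% in controls. The genes were chosen with earlier results of these data known, so the shares over all loci are given as a description only. A call here is a Benjamini-Hochberg adjusted p under 0.05 in edgeR's quasi-likelihood test over 13749 loci. The median log2 fold change of the 4 genes was 5.16 in mutant and 4.91 in control cells, beside -0.03 and -0.13 over all loci tested. Fewer epithelial cells and less RNA of a gene per cell cannot be told apart in bulk samples.

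Levels are in CPM, each library's fragments scaled to a common total with TMM factors. Mutant high libraries held 443 and 238 CPM of Cdh1, and control high libraries 434 and 429.5 CPM. Mutant low libraries held 11.0, 6.55, 4.56 and 5.68 CPM, and control low libraries 9.00, 27.0, 15.2 and 13.2 CPM. Every high library lay above every low library, by a wide gap. On the log2 scale high cells exceeded low cells by 5.62 in mutant (SE 0.42, edgeR adjusted p = 4.17e-07) and 4.75 in control kidneys (SE 0.41, edgeR adjusted p = 4.69e-07). The mean Cdh1 level of low cells was 2.04% of that of high cells in mutant and 3.74% in control kidneys.

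Krt8, the type II keratin, followed the same pattern. Mutant high libraries held 901 and 597 CPM of it, and control high libraries 919.6 and 796 CPM. Mutant low libraries held 22.6, 13.3, 11.7 and 13.8 CPM, and control low libraries 13.7, 40.1, 25.5 and 22.3 CPM. High and low libraries did not overlap, and the library with the highest Cdh1 in each low group, replicate 1 of mutant low and replicate 2 of control low, was also the highest for Krt8. High over low cells gave a log2 fold change of 5.61 in mutant (SE 0.38, edgeR adjusted p = 1.45e-07) and 5.08 in control kidneys (SE 0.37, edgeR adjusted p = 1.25e-07). Fragments of Krt8 may be shared with near-identical copies. In GENCODE M21 transcripts, 2 other genes, Krt8-ps and Gm36026, held stretches of at least 100 bases at 95% identity or more, and the longest was 941 bases. No such stretch was found for Cdh1, Epcam or Krt18.

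Krt18, the type I partner of Krt8, was the rarest of the 4. Its fragments numbered 273 and 163 in mutant high, 57 and 71 in control high, 8, 9, 6 and 8 in mutant low, and 5, 1, 2 and 4 in control low libraries. In CPM, Krt18 was at 26.4 and 20.1 in mutant high and at 11.9 and 20.1 in control high libraries. It was at 0.924, 1.37, 0.667 and 0.650 CPM in mutant low, and at 0.585, 0.136, 0.216 and 0.328 CPM in control low libraries. Again the high and low libraries were separate, although the low values rest on few fragments. The difference of high over low cells on the log2 scale was 4.71 in mutant (SE 0.40, edgeR adjusted p = 7.91e-07) and 5.57 in control kidneys (SE 0.45, edgeR adjusted p = 2.39e-07).

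Epcam was the most abundant of the 4 genes and the only one of them with over 90 CPM in every low library. Mutant high libraries held 1136 and 924 CPM of it, and control high libraries 1026 and 1110.0 CPM. Mutant low libraries held 187, 176, 258 and 222 CPM, and control low libraries 103, 152, 92.1 and 163 CPM. The low libraries lay below the high ones without overlap, but above 82.4% to 93.4% of the loci tested in the same library. Low libraries of Cdh1, in contrast, ranked above only 32.4% to 60.5% of loci, those of Krt8 above 46.0% to 68.4%, and those of Krt18 above 0.989% to 14.7%. For Epcam the log2 fold change of high over low cells was 2.29 in mutant (SE 0.26, edgeR adjusted p = 1.25e-05) and 3.07 in control kidneys (SE 0.27, edgeR adjusted p = 4.11e-07). Low cells held 20.5% of the high-cell level in mutant and 11.9% in control kidneys.

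**Figure D1:**
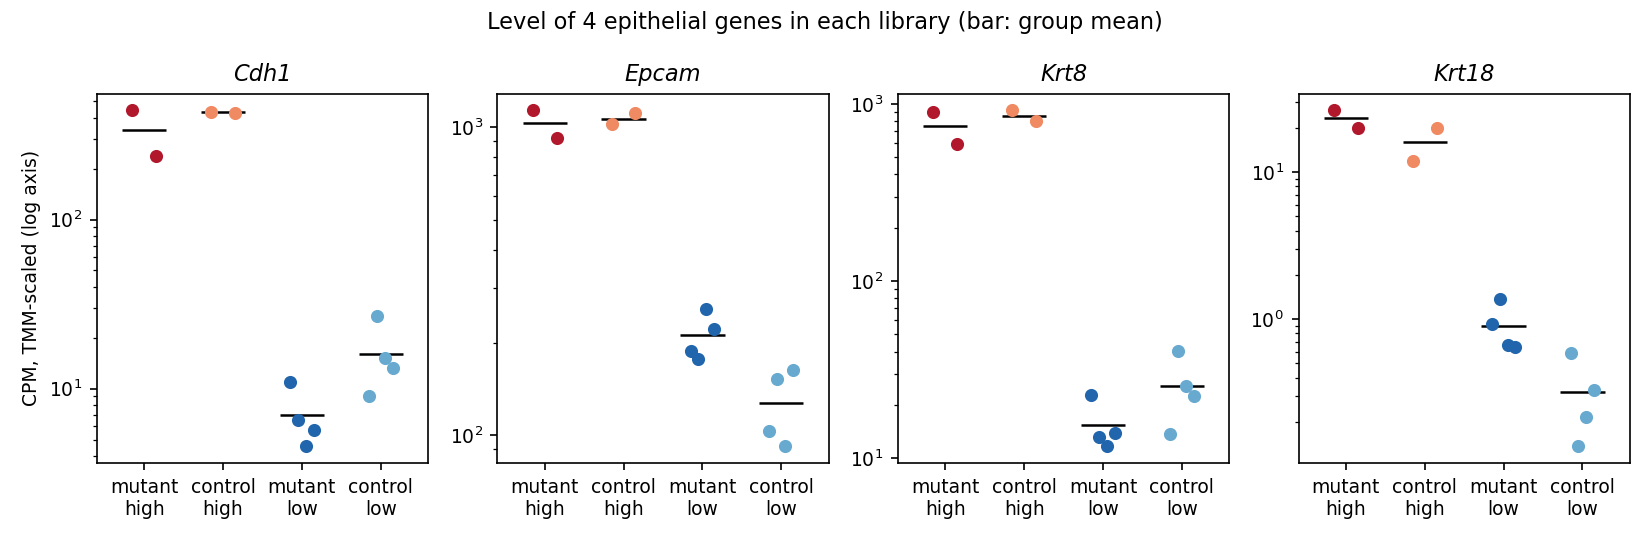
CPM (TMM-scaled, log axis) of Cdh1, Epcam, Krt8 and Krt18 in each library, with mutant high, control high, mutant low and control low groups from left to right and a bar at each group mean. The high libraries lie above all low libraries for each gene, and Epcam keeps 92.1 CPM or more in low libraries.

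Levels of different genes were compared per kilobase of the longest coding transcript in GENCODE M21. On that scale Epcam came first, then Krt8, Cdh1 and Krt18, and this order held within 12 of 12 libraries. Epcam averaged 505 ± 73.6 CPM per kb in mutant high and 524 ± 29.1 in control high cells (SD, n = 2 each), and 103 ± 18.0 in mutant low and 62.5 ± 17.2 in control low cells (SD, n = 4 each). Krt8 averaged 383 ± 110.0 CPM per kb in mutant high and 438 ± 44.6 in control high cells (SD, n = 2 each), against 7.83 ± 2.52 in mutant low and 12.97 ± 5.61 in control low cells (SD, n = 4 each). In mutant high libraries the ranges of Epcam and Krt8 overlapped, from 453 to 557 and from 305 to 460 CPM per kb. Cdh1 averaged 76.8 ± 32.7 in mutant high and 97.4 ± 0.632 CPM per kb in control high cells (SD, n = 2 each). In low cells it averaged 1.57 ± 0.634 CPM per kb in mutant and 3.64 ± 1.74 CPM per kb in control libraries (SD, n = 4 each). Krt18 averaged 16.2 ± 3.11 CPM per kb in mutant high and 11.1 ± 4.07 CPM per kb in control high libraries (SD, n = 2 each), and in low cells 0.628 ± 0.234 CPM per kb in mutant and 0.220 ± 0.136 CPM per kb in control libraries (SD, n = 4 each). The keratin pair was far from equal in fragments, which are not corrected for length and for Krt8 may be shared with near-identical copies. There were 34.2 and 29.8 Krt8 fragments per Krt18 fragment in mutant high, and 77.6 and 39.5 in control high libraries. In low cells there were 24.5, 9.67, 17.5 and 21.3 Krt8 fragments per Krt18 fragment in mutant, and 23.4, 295, 118 and 68.0 in control libraries. The last values rest on 1 to 5 Krt18 fragments a library, and no test was made of this ratio.

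In low cells Cdh1 was the only gene called between mutant and control, and no difference was shown for the other 3. Thus 1 of 4 was called lower, where 3.21% of all loci tested were, and 0 of 4 were called higher, where 4.82% of all loci were. Together 8.03% of loci were called in either direction. An unadjusted p under 0.05 in the edgeR test was reached by 4 of the 4 genes and by 20.4% of all loci tested. DESeq2 and limma-voom each also called Epcam higher, and limma-voom did not call Cdh1. The median log2 fold change of the 4 genes was 0.00, beside -0.06 over all loci tested. That median lies between negative values for Cdh1 (-1.21) and Krt8 (-0.72) and positive values for Epcam (0.73) and Krt18 (1.41). It therefore does not mean that each gene was unchanged.

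Cdh1 averaged 6.94 ± 2.81 CPM in mutant low and 16.1 ± 7.73 CPM in control low cells (SD, n = 4 each). Cdh1 was lower by this measure, with a log2 fold change of -1.21 (SE 0.35, approximate 95% interval -1.96 to -0.46, edgeR adjusted p = 0.0468). The groups overlapped at their edges, since replicate 1 of mutant low, at 11.0 CPM, lay above replicate 1 of control low, at 9.00 CPM. The direction was the same in all 26 alternatives run, with log2 fold changes from -1.49 to -0.85, but the call was lost in 16 of them and the adjusted p ranged from 0.0172 to 0.449. Without control low replicate 2, the control library with most Cdh1, the log2 fold change was -0.85 (edgeR adjusted p = 0.161). The call was also lost without control low replicate 3 (-1.22) or 4 (-1.30), control high replicate 1 (-1.18) or 2 (-1.18), and mutant low replicate 2 (-1.19), 3 (-1.06) or 4 (-1.12).

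Krt8 averaged 15.3 ± 4.94 CPM in mutant low and 25.4 ± 11.0 CPM in control low cells (SD, n = 4 each), with overlapping ranges. Its log2 fold change of -0.72 (SE 0.31) was not called (edgeR adjusted p = 0.190) and was called in none of 26 alternatives. Without control low replicate 2, the control library with most Krt8, it was -0.42, and without the other libraries in turn it ran from -0.94 to -0.61.

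Epcam averaged 211 ± 36.7 CPM in mutant low and 128 ± 35.1 CPM in control low cells (SD, n = 4 each). Each of the 4 mutant low libraries lay above each of the 4 control low libraries, the lowest mutant value being 176 CPM and the highest control value 163 CPM. The log2 fold change of 0.73 (SE 0.23) narrowly missed the threshold (edgeR adjusted p = 0.0645). It was called in 3 of 26 alternatives, DESeq2 (adjusted p = 0.0176), limma-voom (adjusted p = 0.0441) and the edgeR fit without control low replicate 4 (adjusted p = 0.0440), and the adjusted p ranged from 0.0176 to 0.234.

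Krt18 averaged 0.903 ± 0.337 CPM in mutant low and 0.316 ± 0.196 CPM in control low cells (SD, n = 4 each), and the ranges did not overlap. These levels rest on 31 fragments in the mutant low and 12 in the control low libraries. Per library total the ratio was 2.60, with an exact binomial 95% interval of 1.30 to 5.57 that covers counting error only. The log2 fold change of 1.41 (SE 0.47) was not called (edgeR adjusted p = 0.0871), nor in any of 22 alternatives.

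**Figure D2:**
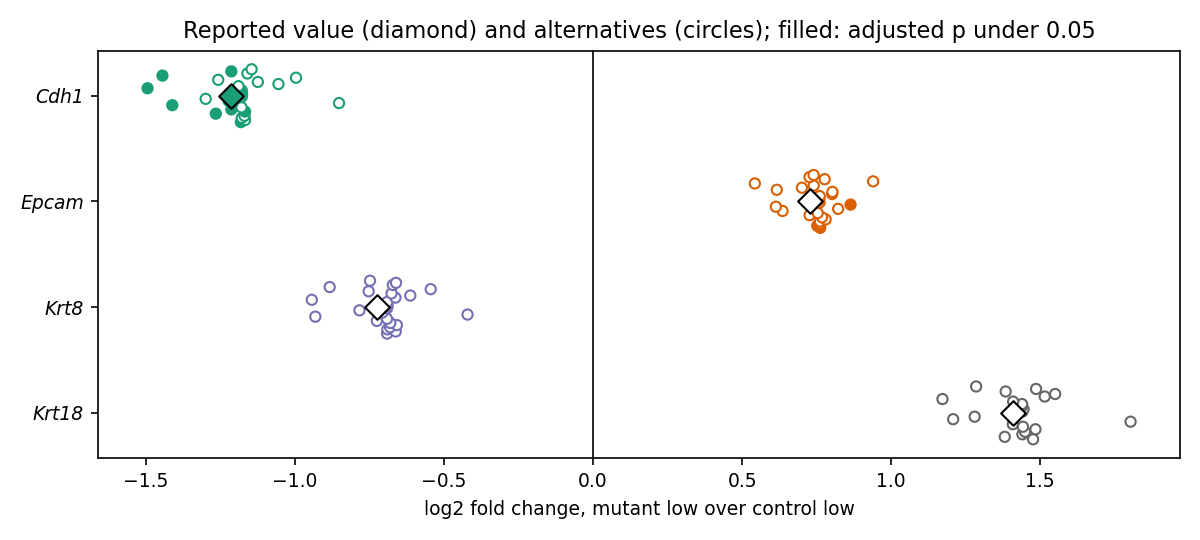
Log2 fold change of mutant low over control low cells for each gene, with the reported value as a diamond, each alternative setting as a circle, and filled symbols for an adjusted p under 0.05. Cdh1 and Krt8 stay below 0 and Epcam and Krt18 above 0 throughout, while Cdh1 is filled in 10 of 26 circles and Epcam in 3 of 26.

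Because scaling between libraries cannot change the ratio of 2 genes within a library, the fragments of Cdh1, Epcam and Krt8 were also compared with each other. These 3 ratios were chosen after their values had been seen. Krt18 was left out because of its few fragments in low cells. The number of Epcam fragments per Cdh1 fragment was 17.1, 26.9, 56.6 and 39.1 in mutant low libraries, against 11.4, 5.64, 6.04 and 12.3 in control low libraries. All 4 mutant low libraries lay above all 4 control low libraries, and the difference of the mean log2 ratios was 1.93. In high cells the same ratio was 2.57 and 3.89 in mutant and 2.37 and 2.58 in control libraries, below each low library.

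Krt8 fragments per Cdh1 fragment numbered 2.06, 2.02, 2.56 and 2.43 in mutant low, against 1.52, 1.48, 1.67 and 1.69 in control low libraries. The mutant low values again lay above all control low values, although the difference of the mean log2 ratios was only 0.51. The high libraries, at 2.04 and 2.51 in mutant and 2.12 and 1.85 in control cells, all lay above the control low libraries too. Epcam fragments per Krt8 fragment numbered 8.29, 13.3, 22.1 and 16.1 in mutant low, against 7.53, 3.80, 3.61 and 7.28 in control low libraries, a difference of 1.43 between the mean log2 ratios. Because these ratios were picked for their values, the separation of the groups is given as a description and no p is attached to it. Without single low libraries the difference ran from 1.66 to 2.23 for Epcam to Cdh1, from 0.45 to 0.56 for Krt8 to Cdh1, and from 1.21 to 1.68 for Epcam to Krt8. The ratios do not say which gene of a pair differed.

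**Figure D3:**
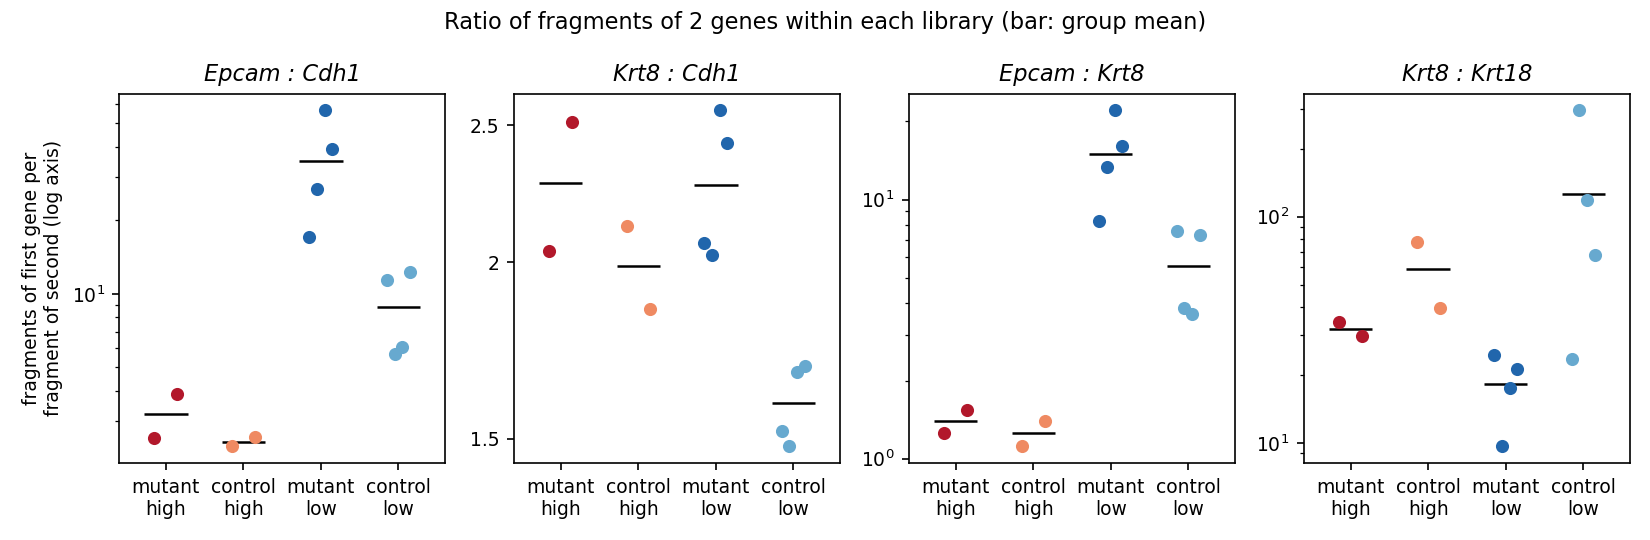
Fragments of the first gene per fragment of the second within each library (log axis), with mutant high, control high, mutant low and control low groups from left to right and a bar at each group mean. The 4 mutant low libraries lie above the 4 control low libraries in the first 3 panels, and Epcam to Cdh1 is between 2.37 and 3.89 in the high libraries.

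In high cells 0 of the 4 genes were called between mutant and control, where 27.5% of all loci tested were called, 16.3% higher and 11.2% lower. An unadjusted p under 0.05 was reached by 0 of the 4 genes and by 39.1% of all loci, and DESeq2 and limma-voom called none either. The median log2 fold change of the 4 genes was -0.12, beside 0.08 over all loci, which became -0.03 with the trend on locus span removed. Cdh1 averaged 340.2 ± 145 CPM across mutant high libraries and 432 ± 2.80 CPM across control high libraries (SD, n = 2 each), and the log2 fold change of -0.34 had an approximate 95% interval of -1.33 to 0.64 (edgeR adjusted p = 0.618). The mutant high libraries lay far apart, at 443 and 238 CPM, while the control high libraries nearly coincided. Krt8 differed by -0.20 on the log2 scale (interval -1.09 to 0.70, edgeR adjusted p = 0.763) and Epcam by -0.05 (interval -0.73 to 0.62, edgeR adjusted p = 0.921). Krt18 was the only one with a positive value, 0.54 (interval -0.37 to 1.46, edgeR adjusted p = 0.368). Without mutant high replicate 2 the values turned positive for Cdh1 (0.06), Krt8 (0.09) and Epcam (0.11). Krt18 gave 0.35 when mutant high replicate 1 was left out, 0.25 when control high replicate 1 was, and 0.96 when control high replicate 2 was. The low-cell value of Cdh1, -1.21, lies within its high-cell interval, and that of Epcam, 0.73, lies just above its own.

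The mutant effects in high and in low cells were compared by the interaction of genotype and population, which called 0 of the 4 genes, where 10.3% of all loci were called, 7.29% higher and 3.05% lower. An unadjusted p under 0.05 was reached by 0 of the 4 genes and by 25.3% of all loci, and DESeq2 and limma-voom called none. The estimates were 0.87 for Cdh1 (SE 0.58, edgeR adjusted p = 0.374), 0.53 for Krt8 (SE 0.52, edgeR adjusted p = 0.566), -0.78 for Epcam (SE 0.39, edgeR adjusted p = 0.226) and -0.86 for Krt18 (SE 0.62, edgeR adjusted p = 0.417). Without single libraries they ran from 0.33 to 1.24 for Cdh1, 0.17 to 0.78 for Krt8, -0.96 to -0.65 for Epcam and -1.26 to -0.48 for Krt18. The low ends for Cdh1 and Krt8 came without mutant high replicate 1, and those without control low replicate 2 were 0.51 and 0.23. For Krt18 the ends came without control low replicate 1 and without control high replicate 2, and the value was -2.04 with a block on the description numbers (edgeR adjusted p = 0.150). A different mutant effect in high and low cells was therefore not shown for any of them.

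**Figure D4:**
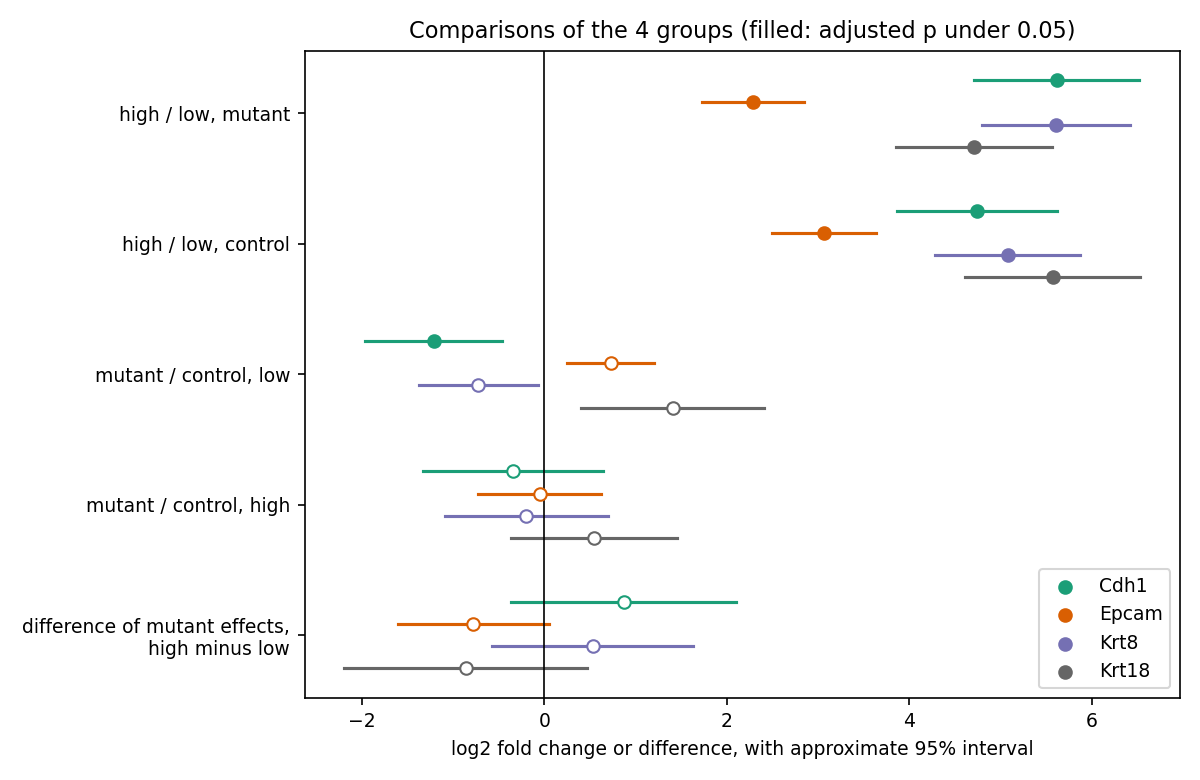
Log2 fold change, or difference of log2 fold changes, of each gene in each comparison, with approximate 95% intervals and filled points for an adjusted p under 0.05. The high over low values run from 2.29 to 5.62, whereas the mutant over control values run from -1.21 to 1.41.

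Across the 12 libraries, which fall into separate high and low groups, Cdh1 and Krt8 had the most alike profiles. Each gene was compared with 10052 others, the remaining 3 genes and 10049 loci with a mean of at least 5 CPM. Krt8 ranked first in likeness to Cdh1 and Cdh1 ranked first in likeness to Krt8, by Pearson's r of log2 CPM (0.995, n = 12). Epcam had rank 855 and Krt18 rank 844 in likeness to Cdh1, with r of 0.885 and 0.887. Krt18 was more like Epcam (r of 0.956) than like its partner Krt8 (r of 0.916). The r values of Krt18 rest in part on few fragments, 6 to 9 in mutant low and 1 to 5 in control low libraries. Outside the windows, the locus most like Cdh1 lay on chromosome 5 from 123157565 to 123179051 (r of 0.991), and it was also second for Krt8 (r of 0.993). The first for Krt8 lay on chromosome 8 from 97501008 to 97538108 (r of 0.994), the first for Epcam on chromosome 11 from 69778280 to 69781388 (r of 0.989), and the first for Krt18 on chromosome 4 from 133783956 to 133794314 (r of 0.979). The locus nearest to Epcam in profile averaged 656 CPM in high cells of mutants and 866 CPM in those of controls, and 80.3 CPM in low cells of mutants and 33.4 CPM in those of controls. It was chosen for its likeness to Epcam over these same libraries. The files do not pair these identifiers with gene names.

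The neighbouring loci did not all share the pattern. Of 9 other loci whose lower coordinate lay within 100 kb of the windows, 6 were tested. Loci that began farther out and reached into that distance were not counted. The locus after Cdh1, 12.8 kb away, averaged 3.73 CPM in high cells of mutants and 7.53 CPM in those of controls, and 5.13 CPM in low cells of mutants and 7.69 CPM in those of controls. It was called in no comparison. The locus after Epcam, 21.4 kb away, ran the other way from Epcam in control kidneys, with 38.2 CPM in high and 105.7 CPM in low cells (log2 fold change -1.47, SE 0.30, edgeR adjusted p = 0.000881). In mutants that locus held 65.5 CPM in high and 100.9 CPM in low cells and was not called (log2 fold change -0.62, SE 0.28, edgeR adjusted p = 0.109). Of the 4 tested near Krt8 and Krt18, 2 were called higher and 1 lower in high than in low cells of mutants. Over all loci tested, 19.0% were called higher and 13.2% lower in that comparison. In control kidneys 1 was called higher and 1 lower in high cells, where 25.3% and 27.0% of all loci were. Counts out of 4 are too small to be read against these shares.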

How the data were processed

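Per the file's title, the deposited table holds raw fragments of CuffDiff2, and the authors deposited them as estimated counts for each transcript, without scaling. Bowtie2, HTSeq, DESeq2 and the mm9 build appear in the submitters' processing notes with neither roles nor versions. Per the labels' protocols, libraries were made from amplified cDNA. How strand and fragments that match several places were handled is not given in the sources used here, and antisense neighbours cannot be separated from a gene.

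Transcripts overlapping on 1 strand were summed to loci (99.6% to 99.9% of sums whole within 0.01) and rounded. The Krt8 and Krt18 window holds 1 locus on each strand, and both were kept as separate genes. edgeR 4.0.16 in R 4.3.3 was fitted to all 12 samples in 4 groups, with TMM, filterByExpr (13749 loci), robust quasi-likelihood F tests and Benjamini-Hochberg adjustment over all loci. SEs are the absolute log2 fold change divided by the square root of F, and 95% intervals of log2 fold changes are built from them. The fit was also run on simulated data with equal spread at every locus, and no result here rests on that run. Alternatives used DESeq2 1.42.0, limma-voom (limma 3.58.1) and other scalings, filters, samples, blocks and features. The 4 genes were named in every comparison, and the loci most like each by the rule on correlation. The genes and lists were chosen with earlier results of these data known. The lists of other epithelial, mesenchymal and cell type genes were not analysed here, because the files' identifiers are not paired with names in the reference tables, and Eed and Six2 were not used to check the labels for the same reason.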

Additional observations from a re-analysis of the deposited data

How the results depend on the processing

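The 4 genes were called higher in high cells of each genotype under every alternative run. The Cdh1 log2 fold change of mutant over control low cells (-1.21) was no longer called with limma-voom (-1.17), RLE (-1.18), chromosome M and the 100 most abundant loci out of the library sizes (-1.17), the 2 low groups alone (-1.18), description numbers 4 to 7 (-0.996), each transcript as a feature (-1.16) and libraries thinned to the smallest total (-1.15). Leaving out each sample gave -1.49 to -0.852, with 4 of 12 called. The cause was not tested. With description numbers 8 to 11 it was -1.44 (adjusted p = 0.0301). Epcam in low cells (0.73) was called with DESeq2 (0.762) and limma-voom (0.752), and ranged from 0.613 to 0.864 without single samples. In high cells Epcam (-0.05) reversed with chromosome M and abundant loci out (0.0095) and with no filter (0.0017). Without single samples the high-cell values ran from -0.852 to 0.057 for Cdh1, -0.200 to 0.111 for Epcam and -0.517 to 0.0898 for Krt8 (and 0.245 to 0.959 for Krt18), the first 3 upper ends without mutant high replicate 2. Krt18 was not tested in the 2 low groups alone or in the description number subsets, where the filter removed it.

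Title numbers were not taken to pair the samples, since deviations of same-numbered mutant and control low libraries correlated at 0.067, 0.28, 0.099 and 0.47, and 2 of 8 low libraries correlated best with their own number. With that replicate block Cdh1 in low cells was -1.26 (adjusted p = 0.0532) and no other call on the 4 genes changed. Loci called higher and lower in mutant low cells were 778 and 553, against 663 and 441. For high and low libraries that share a description number, r was 0.23 and 0.14 in mutant and -0.055 and -0.084 in control kidneys. The block on description numbers had no mutant over control test and changed no call on the 4 genes.

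The Epcam to Cdh1 log2 ratio differed by 1.42 with description numbers 4 to 7, 2.45 with 8 to 11 and 1.93 with the title block. Krt8 to Cdh1 gave 0.445, 0.569 and 0.507 in the same order, and Epcam to Krt8 gave 0.973, 1.88 and 1.43. Without single libraries they ran from 1.66 to 2.23, 0.446 to 0.559 and 1.21 to 1.68.

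Of 248 counts of called loci, 27 differed over 1.5 times from the reported fit. With each transcript as a feature, mutant over control gave 1447 higher and 565 lower in high cells (2239 and 1541 reported) and 292 and 135 in low cells, high over low gave 857 lower in mutants (1814 reported), and the interaction gave 430 and 114 (1002 and 420 reported). The interaction gave 720 lower with DESeq2, 696 with the title block and 273 with the description block. Mutant low cells had 282 lower in the low groups alone and 268 with description numbers 4 to 7. Without single samples, lower loci reached down to 263 in mutant low cells, 601 in mutant high cells, 865 and 2324 in high over low cells of mutants and controls (3719 reported) and 134 in the interaction, and higher loci to 1162 in mutant high cells and 359 in the interaction. The median of all loci moved by 0.103 with DESeq2 and -0.166 with no filter in high over low control cells, -0.107 in mutant high cells and -0.108 in the interaction with the span trend removed, and 0.134 in the interaction with no filter.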

Other observations

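A locus on the minus strand of chromosome 15, from 101748965 to 101755166 on mm9 and 72.0 kb from Krt8, had most of its fragments in mutant high cells. It held 465 and 240 fragments in mutant high, 0 and 0 in control high, 0, 0, 15 and 4 in mutant low, and 0, 3, 2 and 0 in control low libraries. It was called higher in mutant high than control high cells (edgeR adjusted p = 0.00277) and than mutant low cells (edgeR adjusted p = 0.000355). The mutant effect was not shown to differ between high and low cells (interaction, edgeR adjusted p = 0.101). The files give it no gene name.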
